A study of Mus musculus with 24 samples.

Results

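The respiratory chain subunit genes were taken from the deposited table of raw counts by gene symbol. The rule kept protein-coding genes whose symbol began with Ndufa, Ndufb, Ndufc, Ndufs, Ndufv, Uqcr, Cox4i, Cox5, Cox6, Cox7, Cox8 or Atp5, the Sdha to Sdhd genes, and the protein-coding mt- genes, each with at least 100 counts summed over 24 libraries. Of 55421 Ensembl identifiers, 107 matched these names and 101 had enough counts. All 101 were among the 18046 genes tested. By role they comprised 7 nuclear core subunits, 29 accessory subunits and 8 assembly factors of complex I, 4 genes of complex II, 8 of complex III, 15 of complex IV, 17 of complex V and 13 mitochondrially encoded subunits. The 6 genes under the minimum were a further identifier of Atp5o with 0 counts, Cox8c with 2, Cox8b and Cox7b2 with 3 each, Ndufa4l2 with 59 and Cox4i2 with 83. Just inside it stood Cox7a1 with 181 counts and Cox6b2 with 925.

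The respiratory chain passes electrons from NADH and succinate through complexes I to IV to oxygen and pumps protons across the inner mitochondrial membrane, and complex V uses that gradient to make ATP. Complexes I, III, IV and V combine subunits encoded in the nucleus with subunits transcribed from the mitochondrial genome, whereas complex II is wholly nuclear. Alveolar epithelial type 2 cells, which make surfactant, are rich in mitochondria.

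RNA was sequenced from type 2 alveolar epithelial cells (AEC2s) of wild-type (WT) mice and of mice with a global knockout of Krt8 (KO), which encodes keratin 8. Cells were analyzed fresh (D0) or after 1, 3 or 7 days of 2D culture (D1, D3, D7), with 3 biological replicates per genotype and day. Each replicate carries a batch date shared by all groups, and the labels do not state what the date marks. The culture is a known model of the passage of AEC2s toward a keratin-rich transitional state and AEC1-like cells. Total counts per library ranged from 10184439 to 19483386, and the age and sex of the mice were not stated in the labels.

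The genotype labels were checked on Krt8 itself. On the CPM scale, which gives a gene's counts in proportion to its library's TMM-scaled total, Krt8 in WT was 484, 551 and 533 on D0, 3157, 3390 and 3068 on D1, 2596, 3862 and 3341 on D3, and 4037, 5087 and 2953 on D7. It lay between 21.1 and 47.4 CPM in all 12 KO libraries, below every WT library. Xist and the Y-linked genes Ddx3y, Eif2s3y, Kdm5d and Uty showed that replicate 1 paired Xist-high WT libraries with Y-positive KO libraries, in which Xist was also detected (11.3, 5.91, 6.03 and 11.9 CPM on D0, D1, D3 and D7), while replicate 2 was Xist-high and replicate 3 Y-positive in both genotypes. Within replicate 1, genotype and sex therefore cannot be told apart.

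Markers of 11 cell types were read in the same libraries, and the gene said to lead a list is its most abundant in WT on D0. The 8 AEC2 markers, of which Sftpc was the most abundant, fell on each culture day in WT. Their summed level was 226825, 289451 and 300012 CPM on D0, 87419, 14990 and 68393 on D1, 477, 337 and 674 on D3, and 173, 190 and 236 on D7. KO gave 251544, 255442 and 303821 on D0, 83088, 14176 and 63005 on D1, 444, 422 and 643 on D3, and 169, 191 and 166 on D7. The D1 libraries of replicate 2 thus stood apart from the other D1 libraries in both genotypes. All 6 transitional markers, led by Krt8, rose on each day, with sums of 1103, 1267 and 1197 CPM on D0 and 13847, 16395 and 10019 on D7 in WT. The 8 AEC1 markers, led by Ager, were mixed, with 3 higher and 4 lower on D1, 5 higher and 3 lower on D3, and 6 higher and 1 lower on D7.

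Markers of the other cell types also varied by day, and on D7 the summed smooth muscle and fibroblast markers exceeded those of AEC2s. Striated muscle markers (5 genes, 4 tested, Myh7 the most abundant and Tnnt2 at 0 in WT D0) summed to 683, 466 and 608 CPM in WT on D0, 129, 12.4 and 55.8 on D1, 21.8, 20.8 and 22.9 on D3, and 25.6, 13.5 and 13.6 on D7. On D7, 3 of these were lower and 1 higher. Pericyte and smooth muscle markers (5 genes, 4 tested, Acta2 the most abundant) summed to 43.3, 24.2 and 9.84 CPM on D0 and 1049, 2261 and 2085 on D7, where 3 had risen. Their sum was 586, 464 and 380 on D3. Club and ciliated markers (4 genes, led by Scgb1a1) summed to 4484, 10075 and 5284 CPM on D0 and 33.9, 35.9 and 25.4 on D7, where all 4 had fallen. In KO on D0 they summed to 12266, 12188 and 17334 CPM, above every WT D0 library. The 6 fibroblast markers, led by Col3a1, summed to 978, 499 and 293 CPM on D0 and 869, 951 and 1803 on D7, with 2 higher and 2 lower. On D7 Col1a2 and Col1a1, at means of 557 and 521 CPM, carried that sum, and Col3a1 was at 80.2. The fibroblast sum was 249, 156 and 135 CPM on D1 and 1727, 1281 and 960 on D3. The 6 macrophage markers, led by Csf1r, summed to 45.9, 28 and 14.4 CPM on D0 and 133, 39.8 and 9.2 on D7, where Cd68 was the most abundant. On D1 the macrophage sum was 179, 93.3 and 25.2. Endothelial markers (5 genes, 2 tested, led by Kdr) stayed at or under 19.8 CPM in WT, lymphocyte markers (3 genes, 2 tested, led by Cd79a) at or under 5.21 and erythroid markers (2 genes, Hba-a1 tested, Hbb-bs leading on D0 and at 0 in WT culture) at or under 6.74. In bulk RNA, fewer cells of a type and less RNA per cell cannot be told apart, and the part of any cell type in the changes described here was not tested.

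Culture lowered more respiratory chain genes than it raised, and on D3 and D7 the mitochondrially encoded genes had the lowest median of any role. In WT, edgeR's quasi-likelihood test called 10 of 101 members higher on D1 (9.9%, against 26.2% of all genes tested) and 26 lower (25.7%, against 28.5%), at an adjusted p under 0.05. On D3, 2 were higher (1.98%, against 26.1%) and 46 lower (45.5%, against 27.9%). On D7, 10 were higher (9.9%, against 28.5%) and 35 lower (34.7%, against 30.2%). The median log2 change of the members was -0.12 on D1, -0.31 on D3 and -0.07 on D7, where that of all genes tested was 0.00, -0.00 and 0.00. By replicate the member median was -0.30, 0.05 and -0.26 on D1, 0.00, -0.61 and -0.30 on D3, and 0.26, -0.22 and -0.30 on D7, so it did not hold 1 sign on any day. Without replicate 2 it was -0.20 on D1 and -0.10 on D3. These comparisons share the D0 libraries. The share of members called higher was thus under that of all genes on each day. The share called lower exceeded it on D3, and on D7 it did so through the 13 mitochondrially encoded genes, as 25% of the nuclear members were called lower on D7. Without replicate 2 and 3, 24 and 23 members were lower on D7. Calls over all genes, in both directions, then went from 10596 to 8835 and 9366. The all-gene share called lower is not given with a replicate left out, so neither excess is shown to hold there.

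The 88 nuclear members and the 13 mitochondrially encoded members differed in size of change. The nuclear median was -0.10 on D1, -0.23 on D3 and 0.00 on D7, and the mitochondrial median was -0.48, -1.57 and -1.28. By replicate, the nuclear median was -0.28, 0.11 and -0.29 on D1, 0.08, -0.51 and -0.21 on D3, and 0.37, -0.14 and -0.20 on D7, so it held 1 sign on none of these days. The mitochondrial median was -0.63, -0.74 and -0.06 on D1, -1.64, -1.63 and -1.42 on D3, and -1.27, -1.27 and -1.44 on D7. The nuclear median was -0.01 on D3 without replicate 2 and 0.01 on D1 without replicate 3. The summed nuclear members stood at 8647 CPM in the WT D0 library of replicate 1 and at 11413 and 10829 in the others. Without replicate 2, the median of all members on D7 was 0.07, and without replicate 3 it was 0.02. The mitochondrial median on D1 was -0.20 without replicate 2 and -0.23 without the D1 libraries of replicate 2 alone.

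The number of members called moved with the libraries used. On D1, 3 members were higher without replicate 2, 4 without replicate 3, and 4 without the D1 libraries of replicate 2. On D3, 1 was higher without replicate 1, 5 without replicate 2 and 11 without the D1 libraries of replicate 2, and 26 were lower without replicate 2. On D7, 6 were higher without replicate 3 and 20 without the D1 libraries of replicate 2, and 23 were lower without replicate 3. Calls over all genes moved as well. On D1 they went from 9863 to 7253 without replicate 2, 8166 without replicate 3 and 9131 without the D1 libraries of replicate 2. On D3 they went from 9740 to 7648, 7735 and 10109 without replicate 1, replicate 2 and the D1 libraries of replicate 2. On D7 they went from 10596 to 9366 without replicate 3 and 11021 without the D1 libraries of replicate 2.

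**Figure D1:**
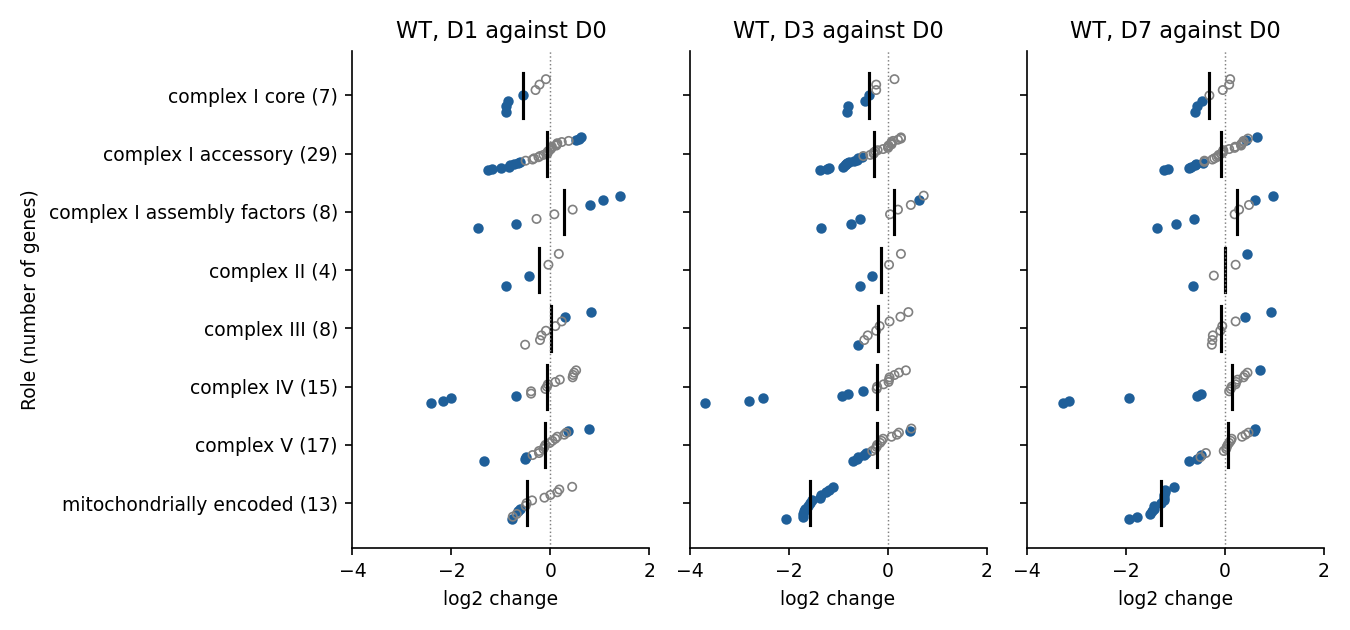
Log2 change of each of 101 respiratory chain genes in WT on D1, D3 and D7 against D0 (x axis), by role (y axis, number of genes in parentheses); filled points passed an adjusted p of 0.05 in edgeR, open points did not, and black bars are medians. All 13 mitochondrially encoded genes lie left of 0 on D3 and D7, and the lowest points of complex IV are Cox6a2, Cox6b2 and Cox7a1.

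The mitochondrial genome encodes 7 subunits of complex I, cytochrome b of complex III, 3 subunits of complex IV and 2 of complex V. All 13 fell in WT on D3 and on D7, when 27.9 and 30.2% of all genes were lower. On D1, 3 passed the test (23.1%), under the 28.5% of all genes that were lower. Their share of a library's counts in WT was 1.69, 1.69 and 1.61% on D0, 1.4, 1.42 and 2.27% on D1, 0.83, 0.802 and 0.978% on D3, and 0.971, 0.946 and 0.86% on D7. The D3 and D7 libraries lay below all D0 and D1 libraries, and the D1 libraries spread on both sides of D0. In KO the share was 1.5, 1.35 and 1.64% on D0, 1.3, 0.858 and 1.94% on D1, 0.665, 0.93 and 0.616% on D3, and 0.989, 1.16 and 0.851% on D7. The 95% Wilson intervals of these shares were 0.0088 to 0.0154 percentage points wide and cover counting error only. WT group means were 1.66 ± 0.0449% (SD, n = 3) on D0, 1.7 ± 0.496% on D1, 0.87 ± 0.095% on D3 and 0.926 ± 0.0578% on D7. The nuclear members held 0.787 ± 0.0792%, 1.05 ± 0.321%, 1.07 ± 0.0946% and 1.09 ± 0.0665% of WT counts on these days. Shares are of unscaled totals, whereas CPM and log2 changes use TMM-scaled totals, so the scales differ. TMM factors were 0.7459 to 0.808 in WT D0 libraries and 0.9987 to 1.1978 in WT culture libraries.

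The mitochondrial counts were also set against those of the nuclear members. For each count on a nuclear member, WT libraries held 2.42, 1.98 and 1.98 mitochondrial counts on D0, 1.79, 1.01 and 2.38 on D1, 0.759, 0.831 and 0.851 on D3, and 0.832, 0.888 and 0.827 on D7. KO libraries held 2.0, 1.71 and 1.79 on D0, 1.61, 0.701 and 1.99 on D1, 0.618, 0.808 and 0.565 on D3, and 0.888, 1.16 and 0.826 on D7. All D0 libraries were above all D3 and D7 libraries, and replicate 2 was the lowest on D1 in both genotypes. On D0, the 10 most abundant nuclear genes took 24 to 31.3% of a library's counts, against 4.43 to 5.51% on D3. Without those genes in the total, the WT share was 2.29 ± 0.0711% on D0 and 0.915 ± 0.0981% on D3 (SD, n = 3). The mitochondrial ribosomal RNAs held 0.299, 0.386 and 0.301% of WT counts on D0, 0.333, 0.456 and 0.68% on D1, 0.177, 0.156 and 0.256% on D3, and 0.309, 0.264 and 0.167% on D7, where the libraries overlapped D0.

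**Figure D2:**
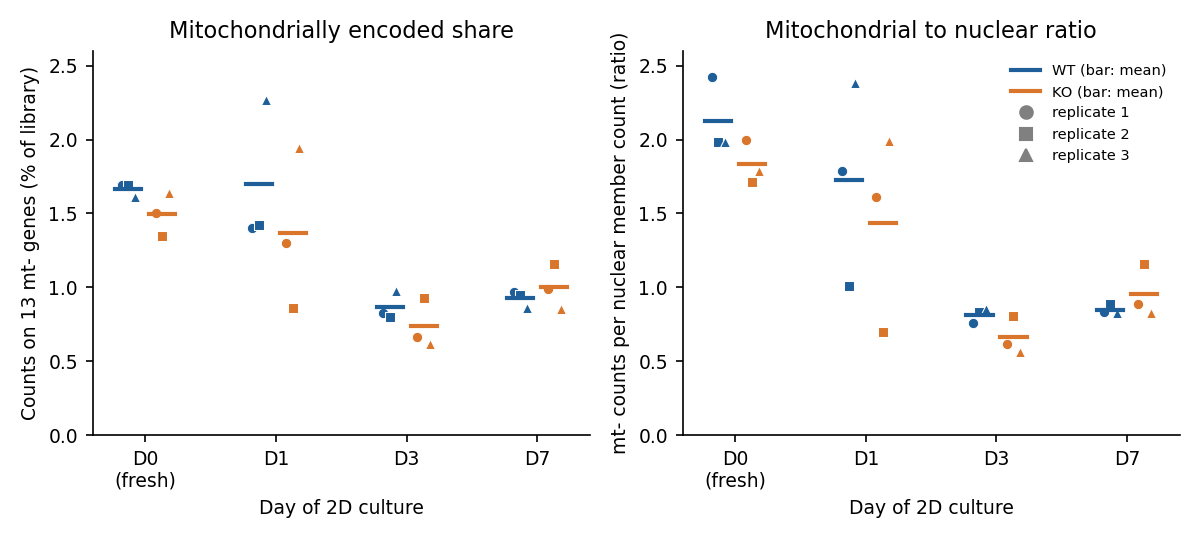
Percent of each library's counts on the 13 mitochondrially encoded genes (left) and their counts per count on the 88 nuclear members (right) by day of 2D culture; points are libraries, shapes are replicates, colors are genotypes and bars are means of 3. D3 and D7 libraries have ratios from 0.565 to 1.16, and D0 libraries from 1.71 to 2.42.

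The catalytic core of complex IV is mitochondrially encoded. mt-Co1 (ENSMUSG00000064351, chrM:5328-6872 in GRCm38), which carries the site of oxygen reduction, stood in WT at 4867, 5081 and 4956 CPM on D0, 2908, 1652 and 4763 on D1, 1426, 1544 and 1702 on D3, and 2204, 2269 and 1938 on D7. All culture values lay below the D0 values, and replicate 3 on D1 came closest. In edgeR its log2 change was -1.67 on D3 (SE 0.34, adjusted p = 3.3e-04, lower in 3 of 3 replicates) and -1.22 on D7 (SE 0.34, adjusted p = 0.0041, lower in 3 of 3 replicates). Without replicate 1, mt-Co1 did not pass 0.05 on D7, at -1.25. mt-Co3 (chrM:8607-9390) stood at 2383, 3244 and 3169 CPM on D0, 1535, 1335 and 2276 on D1, 827, 853 and 1012 on D3, and 1353, 1366 and 1096 on D7. All of its D1, D3 and D7 values were below its D0 values. mt-Co2 (chrM:7013-7696), which accepts electrons from cytochrome c, went from 1253, 1333 and 1168 CPM on D0 to 561, 524 and 512 on D7, without overlap.

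The 3 genes past the threshold on D1 were mt-Co3 (log2 -0.77, SE 0.29, edgeR adjusted p = 0.027), mt-Co2 (-0.62, SE 0.22, edgeR adjusted p = 0.025) and mt-Atp6 (-0.66, SE 0.25, edgeR adjusted p = 0.0287), each lower in 3 of 3 replicates. None of these D1 calls held without replicate 1 (-0.83, -0.55 and -0.63), without replicate 2 (-0.46, -0.36 and -0.41) or without the D1 libraries of replicate 2 (-0.53, -0.40 and -0.48), in the same order. With no filter on low counts, mt-Co3 and mt-Atp6 did not pass on D1, at -0.77 and -0.65. On D7, mt-Atp6 (chrM:7927-8607), the proton channel subunit of complex V, had fallen by 1.51 on the log2 scale (SE 0.25, edgeR adjusted p = 2.9e-05, in 3 of 3 replicates). It was at 1662, 2125 and 1915 CPM on D0 and at 690, 687 and 627 on D7. Its partner mt-Atp8 (chrM:7766-7969) was at 33.3, 34.1 and 41.9 CPM on D0 and at 12.8, 16 and 11.9 on D7. In both genes the D7 libraries lay below the D0 libraries.

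None of the 7 complex I genes of the mitochondrial genome passed the test on D1, and all passed on D3 and D7. mt-Nd2 (ENSMUSG00000064345, chrM:3914-4951), a proton-pumping subunit, stood at 1176, 1370 and 1170 CPM on D0, 998, 1077 and 1631 on D1, 363, 355 and 437 on D3, and 384, 355 and 342 on D7. D1 overlapped D0, and D3 and D7 did not. Its log2 change on D7 was -1.78 (SE 0.25, edgeR adjusted p = 3.7e-06, lower in 3 of 3 replicates). mt-Nd3 (chrM:9459-9806) stood at 71.8, 136 and 117 CPM on D0 and at 31.3, 26.8 and 26.7 on D7, a log2 change of -1.93 (SE 0.34, edgeR adjusted p = 5.2e-05, lower in 3 of 3 replicates). These were the largest falls of the 13 on D7. The smallest was that of mt-Nd6 (chrM:13552-14070), the gene read from the opposite strand to the other 12. It stood at 251, 237 and 236 CPM on D0, 240, 266 and 477 on D1, 99.4, 88.3 and 149 on D3, and 118, 132 and 106 on D7. Its D1 value in replicate 3 was the highest of the 12 WT libraries, and its D7 change was -1.02 (SE 0.32, edgeR adjusted p = 0.00936, lower in 3 of 3 replicates).

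Of the remaining mitochondrial genes, the D7 changes were -1.46 for mt-Nd4, -1.43 for mt-Atp8, -1.42 for mt-Nd4l, -1.28 for mt-Cytb, -1.23 for mt-Co2, -1.22 for mt-Nd5, -1.21 for mt-Nd1 and -1.20 for mt-Co3. mt-Cytb (chrM:14145-15288), the cytochrome b of complex III, stood at 3432, 3339 and 3283 CPM on D0 and 1366, 1406 and 1358 on D7, without overlap. Summed, the complex I genes were 0.655 ± 0.0505 of the complex IV and V genes on D0, 1.01 ± 0.152 on D1, 0.764 ± 0.023 on D3 and 0.607 ± 0.0166 on D7 in WT (SD, n = 3). KO gave 0.63 ± 0.0257, 0.953 ± 0.0647, 0.8 ± 0.121 and 0.599 ± 0.0249. The group mean was thus highest on D1 in both genotypes. Near-identical nuclear copies were not added here. Their counts equaled 78.3% of those on mt-Co3 and 72.4% of those on mt-Atp6. Among complex I genes they equaled 85.7% for mt-Nd4l and 74.8% for mt-Nd3, but 4.14% for mt-Nd2 and 2.97% for mt-Nd4. The level of this ratio thus depends on how reads were split. Without replicate 1, mt-Nd4l (-1.08) and mt-Nd6 (-1.0) did not pass on D3 and mt-Nd6 (-0.99) did not on D7, and without replicate 2 mt-Nd6 did not on D3 (-0.89).

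Complex I takes electrons from NADH. Of its 7 nuclear core genes, which carry the flavin and iron-sulfur clusters, 4 fell on D1, 4 on D3 and 3 on D7 in WT, with medians of -0.55, -0.37 and -0.31. These are 57.1, 57.1 and 42.9% of the 7, against 28.5, 27.9 and 30.2% of all genes. By replicate, the core median on D7 was 0.04, -0.46 and -0.53, so it did not hold 1 sign. Ndufs7 (ENSMUSG00000020153, chr10:80249121-80256794), which holds the last iron-sulfur cluster before ubiquinone, stood at 80.8, 104 and 102 CPM on D0, 40.5, 74.3 and 42.9 on D1, 56.4, 52.1 and 53.3 on D3, and 65.8, 65.0 and 57.4 on D7. Every culture library was below the D0 libraries. Its log2 change was -0.86 on D1 (SE 0.19, edgeR adjusted p = 6.0e-04, lower in 3 of 3 replicates) and -0.61 on D7 (SE 0.19, edgeR adjusted p = 0.008, lower in 3 of 3 replicates). Ndufs8 (chr19:3908863-3912774), a carrier of further iron-sulfur clusters, went from 79.5, 111 and 99.6 CPM on D0 to 68.1, 64.9 and 63.8 on D7 (log2 -0.56, SE 0.22, edgeR adjusted p = 0.0316, lower in 3 of 3 replicates). Ndufs7 did not pass on D7 without replicate 3 (-0.49). Ndufs8 did not pass on D7 without replicate 1, 2 or 3 (-0.71, -0.38 and -0.51), nor on D1 without replicate 3 (-0.71).

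The 29 accessory subunits surround the core and act in its assembly and stability. In WT, 3 rose and 8 fell on D1, 12 fell on D3, and 2 rose and 7 fell on D7. The lower shares of 27.6, 41.4 and 24.1% stood beside 28.5, 27.9 and 30.2% of all genes, and so exceeded them on D3 alone. The largest fall on D7 was that of Ndufb11 (ENSMUSG00000031059, chrX:20615326-20617619), a membrane arm subunit. It stood at 100, 145 and 145 CPM on D0, 49.6, 63.0 and 59.7 on D1, 52.2, 45.7 and 52.5 on D3, and 64.1, 52.1 and 51.4 on D7. No culture library reached the D0 range, and the log2 change on D7 was -1.22 (SE 0.16, edgeR adjusted p = 1.2e-06, lower in 3 of 3 replicates). Ndufc2 (ENSMUSG00000030647, chr7:97400003-97407802), another membrane arm subunit, stood at 153, 197 and 194 CPM on D0, 77.0, 111 and 85.8 on D1, 74.6, 74.5 and 85.0 on D3, and 85.5, 85.8 and 74.8 on D7. Its culture values were likewise all below D0 (D7 log2 -1.14, SE 0.15, edgeR adjusted p = 1.3e-06, lower in 3 of 3 replicates).

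Ndufb6 and Ndufab1 moved the other way from most called accessory subunits. Ndufb6 (ENSMUSG00000071014, chr4:40270591-40279421) stood at 43.0, 54.2 and 58.7 CPM on D0, 47.5, 107 and 85.4 on D1, 59.4, 56.3 and 71.6 on D3, and 81.9, 82.7 and 80.9 on D7. The D7 libraries were above the D0 libraries, and those of D1 and D3 overlapped them. Its log2 change on D7 was 0.66 (SE 0.21, edgeR adjusted p = 0.012, higher in 3 of 3 replicates). Ndufab1 (ENSMUSG00000030869, chr7:122085403-122101886), the mitochondrial acyl carrier protein, went from 83.7, 105 and 106 CPM on D0 to 146, 125 and 127 on D7 (log2 0.43, SE 0.17, edgeR adjusted p = 0.0366, higher in 3 of 3 replicates). The D7 call of Ndufb6 did not hold without replicate 2 (0.74), and that of Ndufab1 did not without replicate 1 (0.25) or replicate 3 (0.52). On D1, Ndufb6 passed at 0.62 but not without replicate 2 (0.47), replicate 3 (0.67) or the D1 libraries of replicate 2 (0.45).

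The name rule also took in 8 Ndufaf genes, which help to build complex I and are not part of it. They split in both directions, with 3 higher and 2 lower on D1, 1 and 3 on D3, and 2 and 3 on D7 (25% higher and 37.5% lower, against 28.5 and 30.2% of all genes). Ndufaf4 (ENSMUSG00000028261, chr4:24898083-24905001) stood at 24.7, 24.5 and 33.4 CPM on D0, 71.2, 87.5 and 58.3 on D1, 44.7, 40.5 and 42.3 on D3, and 37.3, 42.6 and 46.2 on D7. It was highest on D1 and remained above D0 afterward. Its log2 change was 1.40 on D1 (SE 0.17, edgeR adjusted p = 7.2e-07, higher in 3 of 3 replicates) and 0.61 on D7 (SE 0.17, edgeR adjusted p = 0.0032, higher in 3 of 3 replicates). Ndufaf2 (chr13:108002715-108158623) went from 7.5, 10.2 and 10.8 CPM on D0 to 15.3, 17.8 and 22.7 on D7 (log2 0.98, SE 0.34, edgeR adjusted p = 0.0167, higher in 3 of 3 replicates).

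Ndufaf3 (ENSMUSG00000070283, chr9:108565537-108567434), which acts early in complex I assembly, stood at 28.8, 49.0 and 31.9 CPM on D0, 13.6, 18 and 8.07 on D1, 11.9, 15.5 and 15.8 on D3, and 16.1, 13.9 and 12.4 on D7. All culture values were below D0, with a log2 change on D7 of -1.37 (SE 0.24, edgeR adjusted p = 5.3e-05, lower in 3 of 3 replicates). Ndufaf8 (chr11:120098928-120100705) went from 9.72, 13.4 and 16.4 CPM on D0 to 6.26, 7.62 and 6.16 on D7 (log2 -0.98, SE 0.24, edgeR adjusted p = 0.00173, lower in 3 of 3 replicates). Ndufaf2 passed on D1 at 1.07 but not without replicate 2 (0.76) or the D1 libraries of replicate 2 (0.71). On D7 it did not pass without replicate 2 (1.12) or replicate 3 (0.91), nor did Ndufaf8 without replicate 3 (-0.73). On D3, Ndufaf4 did not pass without replicate 1 (0.52). Ndufaf8 passed on D3 at -0.74, but not without replicate 2 (-0.57), without replicate 3 (-0.61) or with no filter on low counts (-0.69).

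Complex II links the citric acid cycle to the chain. Sdha (ENSMUSG00000021577, chr13:74322254-74350280), its flavoprotein, stood at 331, 371 and 351 CPM on D0, 230, 157 and 177 on D1, 242, 242 and 228 on D3, and 231, 221 and 218 on D7. All culture libraries were below D0, and the lowest values were on D1. Its log2 change was -0.90 on D1 (SE 0.11, edgeR adjusted p = 1.3e-06, lower in 3 of 3 replicates) and -0.65 on D7 (SE 0.11, edgeR adjusted p = 4.4e-05, lower in 3 of 3 replicates). Sdhb (ENSMUSG00000009863, chr4:140961203-140979193), the iron-sulfur subunit that binds SDHA, stood at 100, 118 and 110 CPM on D0, 103, 155 and 113 on D1, 135, 129 and 131 on D3, and 154, 157 and 136 on D7. Its D7 values were above D0 in each replicate (log2 0.44, SE 0.14, edgeR adjusted p = 0.01, higher in 3 of 3 replicates). The call of Sdhb did not hold without replicate 1 (0.36).

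Complex III passes electrons from ubiquinol to cytochrome c. Of its 8 nuclear genes, 2 rose on D7 in WT (25%, against 28.5% of all genes), Uqcrq and Uqcrc1. Uqcrq (ENSMUSG00000044894, chr11:53427922-53430831), a small subunit next to cytochrome b, stood at 41.8, 57.8 and 52.9 CPM on D0, 56.8, 126 and 86.6 on D1, 68.6, 57.4 and 77.9 on D3, and 101, 105 and 85.0 on D7. The D7 libraries were all above D0, and replicate 2 was highest on D1. Its log2 change on D7 was 0.93 (SE 0.23, edgeR adjusted p = 0.00151, higher in 3 of 3 replicates). Uqcrc1 (chr9:108936633-108949623), a core protein of the complex, went from 189, 236 and 202 CPM on D0 to 299, 261 and 270 on D7 (log2 0.40, SE 0.12, edgeR adjusted p = 0.00636, higher in 3 of 3 replicates). Uqcrb (chr13:66900617-66905378), a ubiquinone-binding subunit, was at 130, 181 and 175 CPM on D0 and at 153, 160 and 143 on D7, within the D0 range. Uqcrc1 did not pass on D7 without replicate 1 (0.28) or replicate 3 (0.40). Uqcrq passed on D1 at 0.82 but not without replicate 2 (0.69).

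Complex IV reduces oxygen, and several of its subunits come in tissue-specific isoforms. Cox6a2 (ENSMUSG00000030785, chr7:128205435-128206387), the heart and skeletal muscle form, stood in WT at 23.1, 43.0 and 36.7 CPM on D0, 9.02, 5.59 and 8.07 on D1, 2.49, 6.54 and 8.73 on D3, and 2.04, 2.9 and 6.56 on D7. No culture library reached the D0 range. Its log2 change on D7 was -3.15 (SE 0.48, edgeR adjusted p = 1.0e-05, lower in 3 of 3 replicates). Its ubiquitous counterpart Cox6a1 (chr5:115345642-115348981) was at 134, 210 and 204 CPM on D0 and 225, 221 and 212 on D7, a log2 change that did not pass the test (0.26, SE 0.20, edgeR adjusted p = 0.262, higher in 3 of 3 replicates). Per kilobase of transcript, Cox6a1 on D0 was at 320 CPM and Cox6a2 at 50.4.

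Other muscle or testis forms, Cox7a1 and Cox6b2, also lay below D0 in every WT culture library. Of these, Cox6b2 was called higher on D7 than on D3. Cox7a1 (chr7:30184144-30186078), the muscle form, was at 1.52, 2.27 and 1.11 CPM on D0 and at 0.068, 0.0 and 0.397 on D7. It is close to the detection limit, and its log2 change of -3.26 on D7 (SE 0.86, edgeR adjusted p = 0.00274, lower in 3 of 3 replicates) rests on few counts. Cox6b2 (chr7:4751792-4753094), known from testis, was at 8.26, 9.74 and 6.08 CPM on D0, 2.35, 1.5 and 2.1 on D1, 0.459, 0.518 and 0.85 on D3, and 2.86, 2.24 and 1.19 on D7. It was lowest on D3, with log2 changes of -3.69 on D3 (SE 0.36, edgeR adjusted p = 4.7e-08, lower in 3 of 3 replicates) and -1.94 on D7 (SE 0.33, edgeR adjusted p = 3.8e-05, lower in 3 of 3 replicates). Without replicate 2, Cox7a1 did not pass on D1, D3 or D7 (-1.94, -2.31 and -2.39), and on D1 it did not pass without the D1 libraries of replicate 2 (-2.23). The summed striated muscle markers given above, carried on D0 by Myh7, were highest on D0 as well, whereas Tnnt2 was at 0 in WT on D0 and at 21.4, 12 and 11.4 CPM on D7, and their part in the level of these forms was not tested.

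**Figure D3:**
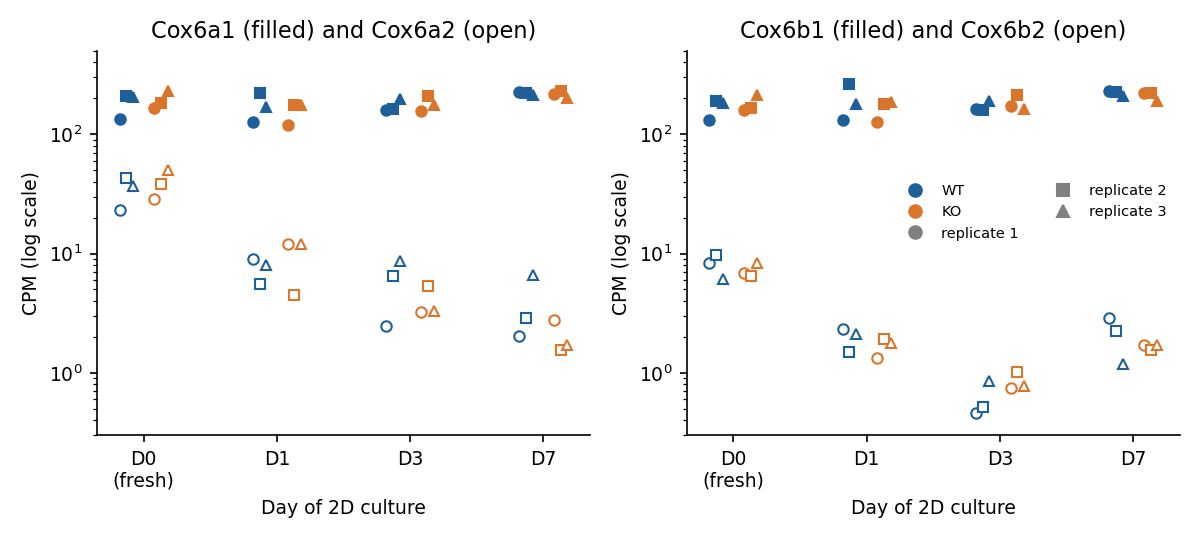
Level in CPM (log axis) of a ubiquitous complex IV subunit (filled) and its tissue-specific form (open) in each library by day of 2D culture; colors are genotypes and shapes are replicates. Cox6a2 lies between 23.1 and 49.9 CPM on D0 and between 1.56 and 12.1 CPM in culture, while Cox6a1 and Cox6b1 stay above 100 CPM.

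Among the ubiquitous forms, Cox8a (ENSMUSG00000035885, chr19:7215153-7217616) stood at 162, 228 and 229 CPM on D0, 99.4, 166 and 118 on D1, 110, 97.6 and 117 on D3, and 147, 134 and 136 on D7. The D3 and D7 libraries lay below D0, with a log2 change on D7 of -0.57 (SE 0.18, edgeR adjusted p = 0.0104, lower in 3 of 3 replicates). Cox5a (ENSMUSG00000000088, chr9:57521274-57532426), a matrix-facing subunit, was the member of the complex that rose on D7, from 111, 168 and 157 CPM to 260, 235 and 220 (log2 0.71, SE 0.19, edgeR adjusted p = 0.00315, higher in 3 of 3 replicates). Cox4i1, which binds ATP as a regulatory subunit, did not pass on any day, with values of 193, 294 and 279 CPM on D0 and 306, 292 and 249 on D7. Neither did Cox6b1, Cox7a2, Cox7b and Ndufa4, whose log2 changes on D7 were 0.41, 0.09, 0.38 and 0.23. Cox7a2l, a factor of supercomplex formation, fell on D3 (log2 -0.49, SE 0.17, edgeR adjusted p = 0.0219, lower in 3 of 3 replicates) and was at 0.12 on D7. Cox8a did not pass on D7 without replicate 2 (-0.40) or replicate 3 (-0.47), or on D1, where it was at -0.69, without replicate 3 (-0.55). Cox7a2l did not pass on D3 without replicate 2 (-0.32), without replicate 3 (-0.44), without the D1 libraries of replicate 2 (-0.40) or with no filter on low counts (-0.45).

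Complex V is the ATP synthase, and its catalytic head alternates α and β subunits. The genes of these subunits moved apart. Atp5b (ENSMUSG00000025393, chr10:128083273-128090391), which encodes the catalytic β subunit, stood in WT at 927, 1129 and 969 CPM on D0, 1262, 1289 and 1331 on D1, 1427, 1358 and 1375 on D3, and 1550, 1526 and 1499 on D7. Every culture library was above every D0 library, with a log2 change on D7 of 0.60 (SE 0.10, edgeR adjusted p = 2.2e-05, higher in 3 of 3 replicates). Atp5a1 (ENSMUSG00000025428, chr18:77773729-77782869), which encodes the α subunit, stood at 816, 1031 and 976 CPM on D0, 835, 744 and 820 on D1, 686, 727 and 660 on D3, and 679, 610 and 624 on D7. Its D3 and D7 libraries were below D0, with a log2 change on D7 of -0.56 (SE 0.10, edgeR adjusted p = 1.1e-04, lower in 3 of 3 replicates). Atp5b did not pass on D1 without replicate 1 (0.32, against 0.36 with all libraries) or replicate 3 (0.31), and Atp5a1 did not pass on D3 without replicate 2 (-0.33, against -0.44) or replicate 3 (-0.38).

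The c ring of complex V, through which protons pass, is made of 1 protein encoded by 3 genes. Atp5g1 (ENSMUSG00000006057, chr11:96068852-96075670) rose from 80.7, 98.7 and 97.3 CPM on D0 to 150, 140 and 134 on D7 (log2 0.62, SE 0.19, edgeR adjusted p = 0.00761, higher in 3 of 3 replicates). Atp5g3 (chr2:73908447-73911326) was at 182, 231 and 234 CPM on D0 and 322, 286 and 256 on D7, and Atp5g2 (chr15:102662864-102672352) at 44.4, 64.6 and 52.4 and 56.2, 53.6 and 55.4. Their changes of 0.42 and 0.04 did not pass. Atp5s (chr12:69724950-69744660), known as coupling factor B, was at 14.6, 16.4 and 16.5 CPM on D0, 5.72, 7.26 and 5.63 on D1, 8.06, 9.91 and 11.5 on D3, and 7.96, 10.7 and 10.1 on D7. It was below D0 in every culture library and lowest on D1 (log2 -1.35, SE 0.22, edgeR adjusted p = 3.2e-05, lower in 3 of 3 replicates). Atp5g1 did not pass on D7 without replicate 3 (0.70). Atp5s passed at -0.69 on D3 and -0.73 on D7, but not on D3 without replicate 1 (-0.62), without replicate 2 (-0.59) or with no filter on low counts (-0.64), nor on D7 without replicate 1 (-0.67) or replicate 3 (-0.73).

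Between culture days, most of the movement was in the mitochondrial genome from D1 to D3. In WT, 4 members were higher on D3 than on D1 (3.96%, against 14.4% of all genes) and 15 lower (14.9%, against 11.8%), and the 15 held all 13 mitochondrially encoded genes. Their median log2 change from D1 to D3 was -1.10, that of the nuclear members -0.15 and that of all genes -0.05. By replicate, the nuclear median was 0.32, -0.72 and 0.09, and it was 0.21 without replicate 2 and 0.13 without the D1 libraries of replicate 2. The other falls were those of Ndufaf4 (-0.77) and Cox6b2 (-1.68), and Sdha (0.34) and Atp5s (0.66) were among those that rose. The count of 15 was 10, 12 and 10 without replicate 1, 2 and 3, so some of the 13 did not pass in each of these. The count of 4 was 2 without replicate 1, 2 without replicate 2, 1 without replicate 3, and 2 with no filter on low counts. Calls over all genes fell as well, from 4736 to 3067, 2627 and 2613 without replicate 1, 2 and 3, and to 3864 with no filter.

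From D3 to D7, edgeR called 2 members higher (1.98%, against 3.15% of all genes) and 0 lower (against 3.45%), where DESeq2 also called 2 and 0, and 8 members had an unadjusted p under 0.05, as had 3464 of the 18046 genes tested. The 2 were Cox6b2 (log2 1.76, SE 0.36, edgeR adjusted p = 0.00361, higher in 3 of 3 replicates) and Cox7a2l (0.61, SE 0.17, edgeR adjusted p = 0.0366, higher in 3 of 3 replicates). Without replicate 1 or replicate 2, edgeR called 0 of them, and it called 1 without replicate 3, 1 without the D1 libraries of replicate 2 and 1 with no filter on low counts. Calls over all genes went from 1191 to 532, 324 and 585 without replicate 1, 2 and 3. They were 1434 without the D1 libraries of replicate 2 and 886 with no filter. The median of the nuclear members was 0.21 and that of the mitochondrial genes 0.12, against -0.01 over all genes. By replicate the nuclear median was 0.30, 0.32 and 0.03, and the mitochondrial median 0.25, 0.27 and -0.19, which did not hold 1 sign. Comparisons of D3 with D1 and of D7 with D3 share the D3 libraries.

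Each culture day was also compared with D0 in KO cells, where culture days were not compared with each other. Against KO D0, edgeR called 7 members higher on D1 (6.93%, against 23.7% of all genes) and 40 lower (39.6%, against 26.9%). On D3, 8 were higher (7.92%, against 25.4%) and 38 lower (37.6%, against 26.6%). On D7, 9 were higher (8.91%, against 28.6%) and 40 lower (39.6%, against 29.8%). The median change of the members was -0.34, -0.28 and -0.16, and that of all genes -0.01, -0.01 and 0.00. By replicate the member median was -0.47, -0.08 and -0.45 on D1, -0.22, -0.09 and -0.51 on D3, and 0.06, -0.10 and -0.47 on D7, where it did not hold 1 sign and was 0.00 without replicate 3. The mitochondrial median was -0.58 on D1, -1.59 on D3 and -1.03 on D7, and all 13 of these genes passed on D3 and D7. On D1 it was -0.55, -1.31 and -0.19 by replicate, and -0.25 without replicate 2. The nuclear median was -0.31, -0.18 and -0.09, and it was 0.05 on D7 without replicate 3.

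Here too the counts moved with the libraries used. On D1, 4, 2 and 3 members were higher without replicate 1, 2 and 3, and 26 and 25 were lower without replicate 2 and 3. On D3, 3, 5 and 5 were higher without replicate 1, 2 and 3, and 21 were lower without replicate 3. On D7, 4 were higher without replicate 1 and 20 lower without replicate 3. Over all genes the KO calls went from 9121 to 7100, 6716 and 7400 on D1, from 9370 to 7257, 7386 and 7910 on D3, and from 10546 to 8690, 8827 and 9015 on D7, without replicate 1, 2 and 3. The WT and KO day comparisons share no library, but they share the 3 dates, so they are not independent. On D7, 9 members were higher in both genotypes (90.0% of the WT list and 100% of the KO list) and 35 were lower in both (100% and 87.5%). On D3, 2 were higher in both (100% and 25%) and 38 lower in both (82.6% and 100%). On D1, 6 were higher in both (60.0% and 85.7%) and 25 lower in both (96.2% and 62.5%). No member was called in opposite directions on any day. Over all genes tested, the shared calls were 78.3 to 89.5% of the WT lists and 86.6 to 90.6% of the KO lists, so calls were widely shared beyond the members. Members shared fewer on D1 in the WT higher list (60.0%, against 78.3%) and the KO lower list (62.5%, against 89.7%). On D3 they shared fewer in the KO higher list (25%, against 87.4%), which held 8 members. In the other lists the member share was near or above that of all genes.

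**Figure D4:**
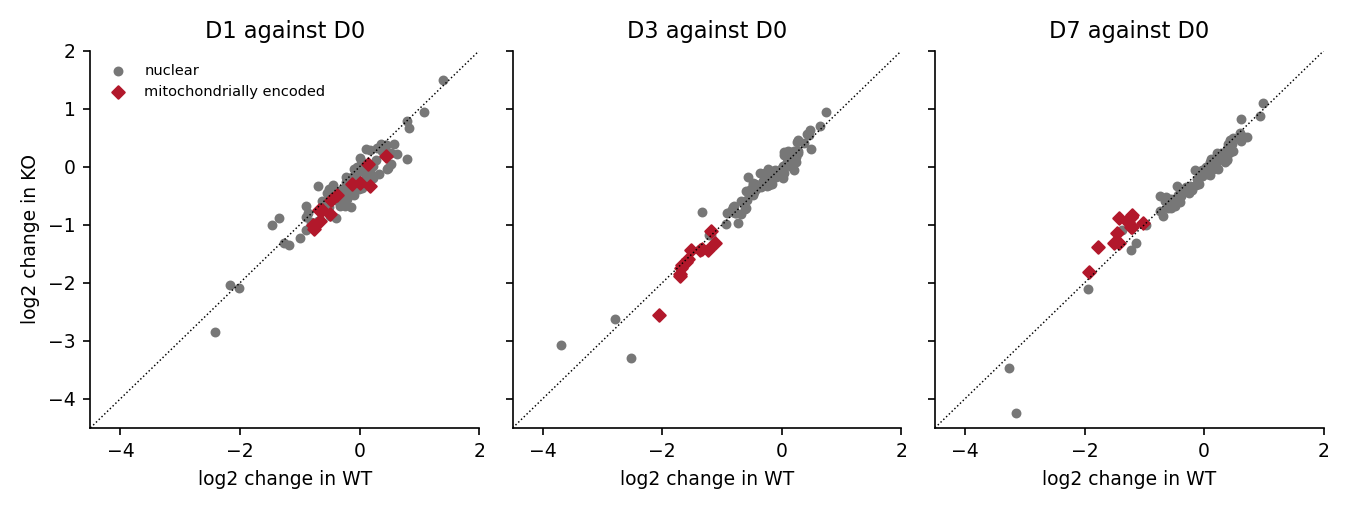
Log2 change from D0 of each of 101 respiratory chain genes in WT (x axis) and in KO (y axis) on D1, D3 and D7; grey points are nuclear members, red diamonds the 13 mitochondrially encoded genes, and the dotted line marks equal change. On D1 the median member is at -0.12 in WT and -0.34 in KO, and the mitochondrially encoded genes lie at or below -1.02 in WT on D7.

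Several members can be followed through both genotypes. mt-Co1 in KO stood at 4583, 3930 and 4537 CPM on D0, 2816, 1227 and 3700 on D1, 1129, 1914 and 1002 on D3, and 2354, 2921 and 1864 on D7. As in WT, the D3 and D7 libraries were below D0, with a log2 change on D3 of -1.69 (SE 0.34, edgeR adjusted p = 3.2e-04, lower in 3 of 3 replicates). Cox6a2 in KO was at 28.5, 38.6 and 49.9 CPM on D0, 12.1, 4.53 and 12 on D1, 3.22, 5.36 and 3.31 on D3, and 2.8, 1.56 and 1.72 on D7. Its culture libraries were all below D0, with a log2 change on D7 of -4.25 (SE 0.51, edgeR adjusted p = 4.7e-07, lower in 3 of 3 replicates). Atp5b in KO was at 948, 1035 and 1027 CPM on D0, 1240, 1390 and 1333 on D1, 1477, 1481 and 1420 on D3, and 1534, 1467 and 1511 on D7, and its culture libraries were all above D0. Ndufaf4 in KO was at 23.3, 21.0 and 27.0 CPM on D0 and 70.6, 68.0 and 63.1 on D1, a log2 change of 1.5 (SE 0.17, edgeR adjusted p = 3.3e-07, higher in 3 of 3 replicates).

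The loss of Krt8 was compared with WT within each day. edgeR called 0 of 101 members on D0 (against 0.0277% of all genes), 0 on D1 (against 0.0166%), 0 on D3 (against 0.0166%) and 0 on D7 (against 0.0166%). At an unadjusted p under 0.05, edgeR gave 0, 2, 0 and 0 members, and DESeq2 gave 0, 2, 0 and 0 and called 0 after adjustment on each day. Over all 18046 genes tested, edgeR gave 472, 629, 448 and 251 at that unadjusted level, so few genes of any kind reached it. With replicate as a block, edgeR gave 1, 2, 0 and 0 members at that level and called 0 after adjustment on each day. The median KO minus WT difference of the members was 0.04 on D0, -0.15 on D1, 0.08 on D3 and -0.03 on D7, beside -0.00, -0.01, 0.00 and 0.00 over all genes. Without replicate 2 it was 0.01 on D1 and -0.06 on D3. The nuclear median was 0.05, -0.12, 0.10 and -0.04, and that of the mitochondrially encoded genes was -0.16, -0.32, -0.21 and 0.12. By replicate the mitochondrial median was -0.15, -0.37 and 0.04 on D0, -0.13, -0.84 and -0.21 on D1, -0.18, 0.11 and -0.62 on D3, and 0.03, 0.36 and -0.02 on D7. It kept 1 sign in all replicates on D1 alone, where no single gene passed. The 95% interval of the difference lay within 2-fold either way for 98, 93, 97 and 97 of 101 members on D0, D1, D3 and D7. Those reaching 2-fold held Cox6a2 and Cox7a1 on each day. The summed club and ciliated markers were higher in every KO than in every WT library on D0, and their part was not tested.

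The smallest p on each day was as follows. On D0 it was that of Atp5g2, at 44.4, 64.6 and 52.4 CPM in WT and 63.1, 65.0 and 88.0 in KO, a log2 difference of 0.42 (SE 0.21, edgeR adjusted p = 1.0, higher in 3 of 3 replicates). The genotypes overlapped. On D1 it was Atp5s, at 5.72, 7.26 and 5.63 CPM in WT and 11.0, 6.54 and 8.79 in KO (log2 0.50, SE 0.22, edgeR adjusted p = 1.0, higher in 2 of 3 replicates). On D3 it was mt-Nd3, at 21.6, 22.3 and 34.2 CPM in WT and 12.1, 25.6 and 13.8 in KO (log2 -0.60, SE 0.33, edgeR adjusted p = 1.0, lower in 2 of 3 replicates). On D7 it was Cox6a2, at 2.04, 2.9 and 6.56 CPM in WT and 2.8, 1.56 and 1.72 in KO (log2 -0.91, SE 0.49, edgeR adjusted p = 1.0, lower in 2 of 3 replicates). In each of these the libraries of both genotypes overlapped.

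Whether the day changes differed between genotypes was tested as an interaction. edgeR called 0 of 101 members (against 0.00554% of all genes, which was Krt8 itself), 0 members had an unadjusted p under 0.05 in edgeR or in DESeq2, and DESeq2 called 0. The smallest unadjusted p was that of mt-Nd4l, whose D0 to D7 change was -1.42 in WT and -0.89 in KO. In CPM it went from 23.6, 23.5 and 22.3 on D0 to 9.11, 8.87 and 7.95 on D7 in WT and from 18.8, 21.9 and 29.2 to 11.6, 14.8 and 11.3 in KO.

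The order of levels within each complex in WT D0 is given in CPM per kilobase of transcript (mean and SD, n = 3). Among mitochondrially encoded genes, mt-Co3 stood at 3740 ± 609, mt-Co1 at 3215 ± 69.7, mt-Cytb at 2930 ± 65.8 and mt-Atp6 at 2791, but their order is uncertain, since counts on near-identical nuclear copies equaled 78.3% of those on mt-Co3, 72.4% of those on mt-Atp6 and, on separate copies, 20.9 and 9.15% of those on mt-Co1. In complex V, Atp5b led at 526 and Atp5a1 followed at 381. In complex IV, Cox8a was at 375 and Cox4i1 at 334, and in complex III, Uqcrb was at 302 and Uqcr10 at 185. Among accessory subunits of complex I, Ndufc2 was at 266 and Ndufb8 at 191. Ndufs7 at 97.2 ± 13 and Ndufs8 at 96.1 ± 15.7 led the core of complex I without differing beyond their spread, as did Sdha at 121 and Sdhd at 119 in complex II. The assembly factors were lower than these genes on this scale. Ndufaf3 at 24.6 ± 7.32 and Ndufaf7 at 19.7 ± 2.3 came first among them without differing beyond their spread. Uqcr10, Ndufb8, Sdhd and Ndufaf7 are named as runners-up, chosen after their values were seen.

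The nuclear members do not form a cluster in the genome. They lie on 19 chromosomes, with the most, 8, on chromosome 7 and 3 on X (Cox7b, Ndufa1 and Ndufb11). Their transcripts have a median length of 870 bases, against 784 for the mitochondrially encoded genes. Many have near-identical copies elsewhere, which makes the split of reads uncertain. Counts on Ndufb4c equaled 97.7% of those on Ndufb4, and the separate counts on nuclear copies equaled 86.9 and 11.2% (on separate copies) of those on mt-Co2, 85.7% of those on mt-Nd4l, 78.3% of those on mt-Co3, 74.8% of those on mt-Nd3 and 72.4% of those on mt-Atp6. Counts on Gm10175 equaled 55.6% of those on Atp5g2, and counts on Gm15920 44.3% of those on Ndufa12. With the copies added, the WT mitochondrial share was 2.17 ± 0.0409% on D0, 1.12 ± 0.132% on D3 and 1.19 ± 0.085% on D7 (SD, n = 3), and no count of members called moved by more than 1.5 times.

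Promoters were searched because the nuclear members are known targets of shared regulators. RefSeq windows of build GRCm38.p6, from 250 bases before to 50 after the start, were found for 74 of 88 nuclear members. The NRF1 core CGCATGCG, which reads the same on both strands, was present in 11 of them (14.9%), against 3.84% of 11861 tested genes with a window. The YY1 motif AAGATGGC was in 11 (14.9%, against 4.73%), the ETS motif CCGGAAG in 18 (24.3%, against 18.2%) and the ERR motif TCAAGGTCA in 2 (2.7%, against 0.337%), each on either strand. None of these motifs contains another. A match describes letters only. The following stretches, read 5′ to 3′ on the gene's strand with the motif in capitals, belong to Ndufaf4 (NRF1, chr4:24897961-24897988, plus strand), Cox6a1 (NRF1, chr5:115349102-115349129, minus), Atp5g2 (NRF1, chr15:102671071-102671098, minus), Ndufb6 (ETS on the opposite strand, chr4:40279637-40279663, minus), Atp5g3 (ERR on the opposite strand, chr2:73911360-73911388, minus) and Atp5j (YY1, chr16:84835047-84835074, minus). They show 1 or more matches to each motif, and Atp5j, a stalk subunit of complex V, was chosen after its match was seen.
Ndufaf4: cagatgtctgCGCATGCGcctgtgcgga
Cox6a1: aggaacggggCGCATGCGcgctctcgct
Atp5g2: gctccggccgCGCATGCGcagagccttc
Ndufb6: cgtccttgttCTTCCGGtcccctcccc
Atp5g3: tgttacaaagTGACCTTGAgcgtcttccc
Atp5j: aagtgtaggaAAGATGGCggagtcttag

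Genes around the chain were read from 5 further lists in WT on D7, when 28.5% of all genes were higher and 30.2% lower. Of 21 regulators of mitochondrial biogenesis, 2 rose and 7 fell, with a median of -0.09. Ppargc1a (ENSMUSG00000029167), the coactivator PGC-1α, stood at 18.1, 9.09 and 9.18 CPM on D0, 6.02, 6.01 and 5.63 on D1, 3.74, 3.76 and 3.0 on D3, and 1.36, 1.16 and 0.993 on D7. All culture libraries were below D0, with a log2 change on D7 of -3.37 (SE 0.36, edgeR adjusted p = 8.1e-08, lower in 3 of 3 replicates) and of -4.37 in KO (SE 0.38, edgeR adjusted p = 5.5e-09, lower in 3 of 3 replicates). Its relative Ppargc1b (ENSMUSG00000033871) was at 4.38, 4.44 and 4.09 CPM on D0 and 0.884, 0.0829 and 0.199 on D7 (log2 -3.41, SE 0.69, edgeR adjusted p = 2.4e-04, lower in 3 of 3 replicates). Pprc1, the third member of that coactivator family, rose from 36.0, 22.3 and 23.9 CPM to 65.1, 60.6 and 72.8 (log2 1.27, SE 0.27, edgeR adjusted p = 4.3e-04, higher in 3 of 3 replicates). Twnk, the helicase that replicates mitochondrial DNA, rose by a log2 of 0.61.

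Of 39 assembly factors tested among 40 listed, 5 rose and 8 fell (median 0.05), with Tmem126a (1.39) and Tmem70 (1.16), which act on complexes I and V, the largest rises and Uqcc3 (-1.20, complex III) and Cox14 (-0.85, complex IV) the largest falls. Of 18 genes of electron carriers and coenzyme Q, 6 rose and 6 fell (median -0.10). Pdss1 (1.89) and Coq3 (1.83), enzymes of coenzyme Q synthesis, rose most. Coq8a (ENSMUSG00000026489), a kinase-like protein of the same pathway, was at 21.5, 29.8 and 27.8 CPM on D0 and 0.884, 1.57 and 1.13 on D7. These groups were far apart (log2 -4.46, SE 0.52, edgeR adjusted p = 2.9e-07, lower in 3 of 3 replicates), and Coq10a, which binds coenzyme Q, fell by 1.68.

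Of 17 genes of pyruvate dehydrogenase and the citric acid cycle, 5 rose and 9 fell (median -0.29). Idh2 (ENSMUSG00000030541), the NADP-dependent isocitrate dehydrogenase of mitochondria, was at 305, 380 and 352 CPM on D0, 98.0, 48.8 and 71.4 on D1, 81.8, 70.5 and 62 on D3, and 43.7, 35.0 and 61.0 on D7. All culture libraries were below D0 (D7 log2 -2.89, SE 0.27, edgeR adjusted p = 1.8e-08, lower in 3 of 3 replicates). Ogdh, of the oxoglutarate dehydrogenase complex, fell by 1.34 on the log2 scale, whereas Dlat (0.89), of pyruvate dehydrogenase, and Cs (0.78), citrate synthase, rose. Of 9 carriers and channels, 5 rose and 4 fell (median 0.54). Slc25a4 (ENSMUSG00000031633), an ADP/ATP carrier, was at 128, 181 and 158 CPM on D0, 179, 287 and 205 on D1, 338, 320 and 321 on D3, and 523, 621 and 579 on D7. Its D3 and D7 libraries were above D0 (D7 log2 1.88, SE 0.17, edgeR adjusted p = 1.1e-08, higher in 3 of 3 replicates). Vdac3 (1.00), an outer membrane channel, rose, and Ucp2 (-1.35), a carrier of the inner membrane, and Mpc2 (-1.20), of the pyruvate carrier, fell.

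RNA levels were measured, and protein, mitochondrial DNA and respiration were not. CPM values are relative to each library's TMM-scaled total, so absolute RNA per cell is not known.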

How the data were processed

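The authors deposited raw counts per gene for 24 libraries, made, per the submitters' notes, with cutadapt 2.3, STAR 2.7.8a and RSEM 1.3.3 on GRCm38. Symbols came from GENCODE M21, and 267 identifiers without an entry held 0.0305% of counts. Genes were filtered (minimum count 10, minimum total 15), scaled by TMM and fitted with edgeR 4.0.16 (limma 3.58.1, R 4.3.3) as 8 groups with 16 residual degrees of freedom. The quasi-likelihood F test was adjusted by Benjamini-Hochberg over 18046 genes, with a threshold of 0.05. Signs within a replicate are of log2 CPM with 0.5 added. For values by replicate, replicates were paired by their shared dates. The main fit held no replicate term, so its p-values and intervals leave this pairing out. Correlations of paired residuals ranged from -0.0345 to 0.548 over the 12 comparisons. For KO against WT they were 0.0573 to 0.439 on D0, 0.405 to 0.508 on D1, 0.0989 to 0.405 on D3 and 0.287 to 0.548 on D7. Alternatives were DESeq2 1.42.0 (size factors, test), no filter, replicate as a block, scaling without mitochondrial genes, and each replicate left out. Adding copies (at least 95% identity over 200 bases) and leaving out the D1 libraries of replicate 2 were chosen after seeing the data.

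Named genes were the 13 mitochondrially encoded genes, the 2 largest rises and falls per role on D7 in WT that passed 0.05 in 1 direction in each replicate, isoform pairs, the smallest p per genotype test, the highest level per kilobase in each complex, members called against most of their role, and the 2 largest rises and falls of each context list. Members and lists were chosen with earlier results of these data known.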

Additional observations from a re-analysis of the deposited data

How the results depend on the processing

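Counts of members called by edgeR changed with the libraries used, and the cause was not tested. Values with all libraries are in parentheses. Leaving out 1 replicate at a time gave, in WT on D1, 3 to 10 members higher (10), on D3 1 to 5 higher (2) and 26 to 46 lower (46), and on D7 6 to 10 higher (10) and 23 to 34 lower (35). From D1 to D3 it gave 1 to 2 higher (4), and from D3 to D7 0 to 1 higher (2). In KO it gave 2 to 4 higher (7) and 25 to 30 lower (40) on D1, 3 to 5 higher (8) and 21 to 37 lower (38) on D3, and 4 to 8 higher (9) and 20 to 33 lower (40) on D7. Each of these fits has fewer libraries than the full fit.

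Without the D1 libraries of replicate 2, chosen after seeing the data, 4 members were higher in WT on D1 (10), 11 on D3 (2), 20 on D7 (10) and 1 from D3 to D7 (2). With no filter on low counts, 2 were higher from D1 to D3 (4) and 1 from D3 to D7 (2).

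The mitochondrial share of counts without the 10 most abundant nuclear genes was 2.29% in WT D0 (1.66%) and 2.08% in KO D0 (1.5%). With near-identical copies added, it was 2.17% in WT D0, 1.12% in WT D3 (0.87%), 1.19% in WT D7 (0.926%), 1.96% in KO D0, 0.946% in KO D3 (0.737%) and 1.29% in KO D7 (0.999%).

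With replicate as a block, 11 members were higher and 29 lower in WT on D1, 3 and 47 on D3, and 12 and 36 on D7. In KO, 7 were higher and 45 lower on D1, 9 and 38 on D3, and 10 and 39 on D7. Calls over all genes, in both directions, rose with the block. In WT they went from 9863 to 10323 on D1, from 9740 to 10186 on D3 and from 10596 to 11073 on D7. In KO they went from 9121 to 9747, from 9370 to 9845 and from 10546 to 10961. The block changed none of the 84 calls of named members in WT against D0. Calls of context genes, single genes in KO and single genes between culture days were not followed through the alternatives. These 84 also held with DESeq2, with its size factors, with mitochondrial genes left out of the scaling and with copies added. Of the 84, 79 held with no filter, 69, 66 and 68 without replicate 1, 2 and 3, and 77 without the D1 libraries of replicate 2, and none turned direction. Of 36 set medians, 3 were classed as moved without replicate 1, 3 without replicate 2 and 3 without replicate 3. DESeq2 gave 2, its size factors 2 and no filter 2. The block, the added copies and leaving out the D1 libraries of replicate 2 each gave 1, and scaling without mitochondrial genes gave 0.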

Other observations

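The D1 libraries of replicate 2 differed from the other D1 libraries in both genotypes, with AEC2 marker sums of 14990 and 14176 CPM against 63005 to 87419 in the others.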
